A study of Bos taurus with 32 samples.

Results

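Expression of the insulin-like growth factor (IGF) family was described in the endometrium of repeat breeder (RB) and normally fertile (non-RB) cows. The family comprised 10 genes, which were the ligands IGF1 and IGF2, the receptors IGF1R and IGF2R, and the binding proteins IGFBP1 to IGFBP6. Members were found by their symbol in the gene name or probe description of the array, without use of any measured value. All 10 genes had a probe, out of 3675 genes with a symbol of the reference table on the array, IGF1 had 2, so that 11 of the 15208 probes belonged to the family on a custom bovine array of 60-base oligonucleotides. The endometrium came from 4 RB and 4 non-RB Japanese Black cows, all non-lactating, slaughtered on Day 15 of the oestrous cycle. RB cows had repeatedly failed to conceive after insemination although the uterus and ovaries appeared healthy on palpation. Non-RB cows had conceived, had their pregnancy ended with a prostaglandin analogue, and had then cycled normally before sampling, so that no cow was pregnant at collection. Caruncular (CAR) and intercaruncular (ICAR) endometrium was dissected from the middle of the uterine horn on the side of the corpus luteum (ipsilateral) and of the other horn (contralateral). This gave 8 cells of group, region and horn with 4 arrays each, 32 arrays in all, and samples of 1 number and group were treated as 1 cow.

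IGF1 and IGF2 are peptide growth factors that signal through IGF1R, a receptor tyrosine kinase, whereas IGF2R, the cation-independent mannose 6-phosphate receptor, takes IGF2 up for breakdown in lysosomes. The binding proteins hold both ligands outside the cell, prolong their life and limit or direct their access to the receptors, and proteases can release the ligand again. In the ruminant uterus the ligands and binding proteins are produced by stroma and epithelium and enter the secretions that feed the conceptus before implantation. CAR are the gland-free areas at which the placenta attaches, and ICAR hold the uterine glands.

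Probes for 4 of the genes lie in coding sequence and are shown, 5′ to 3′ in the sense direction, so that a reader can see which part of each messenger the values below refer to. IGFBP6 is a member that results below turn on, IGFBP5 moved with both ligands over the arrays, IGFBP2 is its neighbour in the genome, and IGF1R is the signalling receptor. No capitals are used, because no part of a probe is singled out.
IGF1R (ABR1497): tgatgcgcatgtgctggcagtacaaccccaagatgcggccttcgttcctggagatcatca
IGFBP2 (ABR1152): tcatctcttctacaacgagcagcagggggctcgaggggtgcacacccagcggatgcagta
IGFBP5 (ABR1518): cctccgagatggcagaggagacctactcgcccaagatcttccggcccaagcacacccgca
IGFBP6 (ABR1517): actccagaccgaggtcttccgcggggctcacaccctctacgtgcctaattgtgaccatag
The guanine and cytosine content of these 4 probes was 55%, 60%, 63.3% and 58.3%, in the order shown. The position of the other 7 probes in their messengers was not determined here. No probe sequence of the family occurred a second time on the array. In the RefSeq gene table IGFBP3 is followed by IGFBP1 and IGFBP2 by IGFBP5 with no protein-coding gene between them, and INS precedes IGF2.

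Each value below is the log2 of the spot signal minus the log2 of the 75th percentile of its array, so that 0 is the signal at that percentile, and levels were compared only within a probe. Over the arrays this percentile lay between 1165 and 4857 intensity units, and 74.3% to 85.8% of spots exceeded background clearly. All 32 arrays gave a signal well above background for 10 of the 11 IGF probes, and 30 arrays did for the IGF1 probe ABR2940. The ICAR array of non-RB replicate 1 in the contralateral horn was flagged by the scanner software as an outlier at IGFBP1, which therefore had 3 non-RB values there. This array and contralateral CAR of non-RB replicate 2 were the arrays of slide 1, with 100 and 351 outlier spots against a median of 2. Their SDs over 100 spots of a repeated GAPDH probe were 0.87 and 1.32 on the log2 scale, against a median of 0.15. CAR and ICAR were checked against 7 markers of glandular epithelium, 8 of epithelium and 8 of stroma. Gland markers were lower in CAR than in ICAR of the same cow and horn, by their median, in 14 of the 16 pairs of arrays. The contralateral pair of RB replicate 3 went against its labels, with 1 of 7 gland markers and 0 of 8 epithelial markers lower in CAR, medians of 2.17 and 1.34 above ICAR on the log2 scale, and all 8 stromal markers lower in CAR. Over 12384 probes its CAR minus ICAR difference correlated at −0.84 with the mean of the other 15 pairs, whose own correlations ran from −0.15 to 0.80. The ipsilateral pair of non-RB replicate 2 was the other exception, with a gland marker median of 0.20 and a correlation of −0.15. The labels were kept, and comparisons that the contralateral arrays of RB replicate 3 enter are given with and without them, or as ranges without them. That pair was singled out by its CAR minus ICAR differences, so p-values for the regions without it are too small by an unknown amount.

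For most members the spread between cows within a cell exceeded the steps between cells that were neighbours in order of mean. Such steps split the range of the 8 means into 7, so most are small in any case. The whole range of the 8 means exceeded the pooled SD within cells for every probe except IGF2. It was 1.82 against 0.96 for IGF1 (ABR317), 0.75 against 0.26 for IGF2R and 1.08 against 1.09 for IGF2. Neither measure tests a difference between cells. The range over the arrays was widest for the ligands, 26.4-fold for IGF1 (ABR2940) and 21.9-fold for IGF2, and narrowest for IGF2R at 2.87-fold and IGF1R at 4.87-fold. When the 8 cell means of a probe were put in order, none of the 7 steps between neighbours exceeded the pooled SD of both cells for 9 probes, and 1 step did for IGF2R and for IGFBP3. Both IGF1 probes and IGFBP6 had their highest mean in RB CAR and their lowest in RB ICAR of the ipsilateral horn. IGF2 and IGFBP5 were highest in RB CAR of the ipsilateral horn and lowest in non-RB ICAR of the contralateral horn. IGFBP4 ran from 1.49 in RB CAR of the contralateral horn to 0.44 in RB ICAR of the ipsilateral horn. IGF1R had the smallest range of means, 0.61 on the log2 scale, from non-RB ICAR of the ipsilateral horn to RB CAR of the contralateral horn. For both IGF1 probes, IGFBP2 and IGFBP6 all 4 CAR means lay above all 4 ICAR means, and the other members had no such order by region. IGFBP2 had −2.30 to −1.93 in CAR against −2.85 to −2.43 in ICAR. The lowest CAR and highest ICAR means were −5.61 and −5.71 for IGF1 (ABR317), −5.53 and −5.63 for ABR2940, and 1.83 and 1.80 for IGFBP6. These were near ties beside pooled SDs within cells of 0.96, 1.12 and 0.58. How many probes of the array had this order was not counted. IGFBP1 was highest in non-RB ICAR of the contralateral horn and IGFBP2 in non-RB CAR of the ipsilateral horn. IGFBP3 had both its highest and its lowest mean in contralateral CAR, in RB and in non-RB cows respectively.

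**Figure D1:**
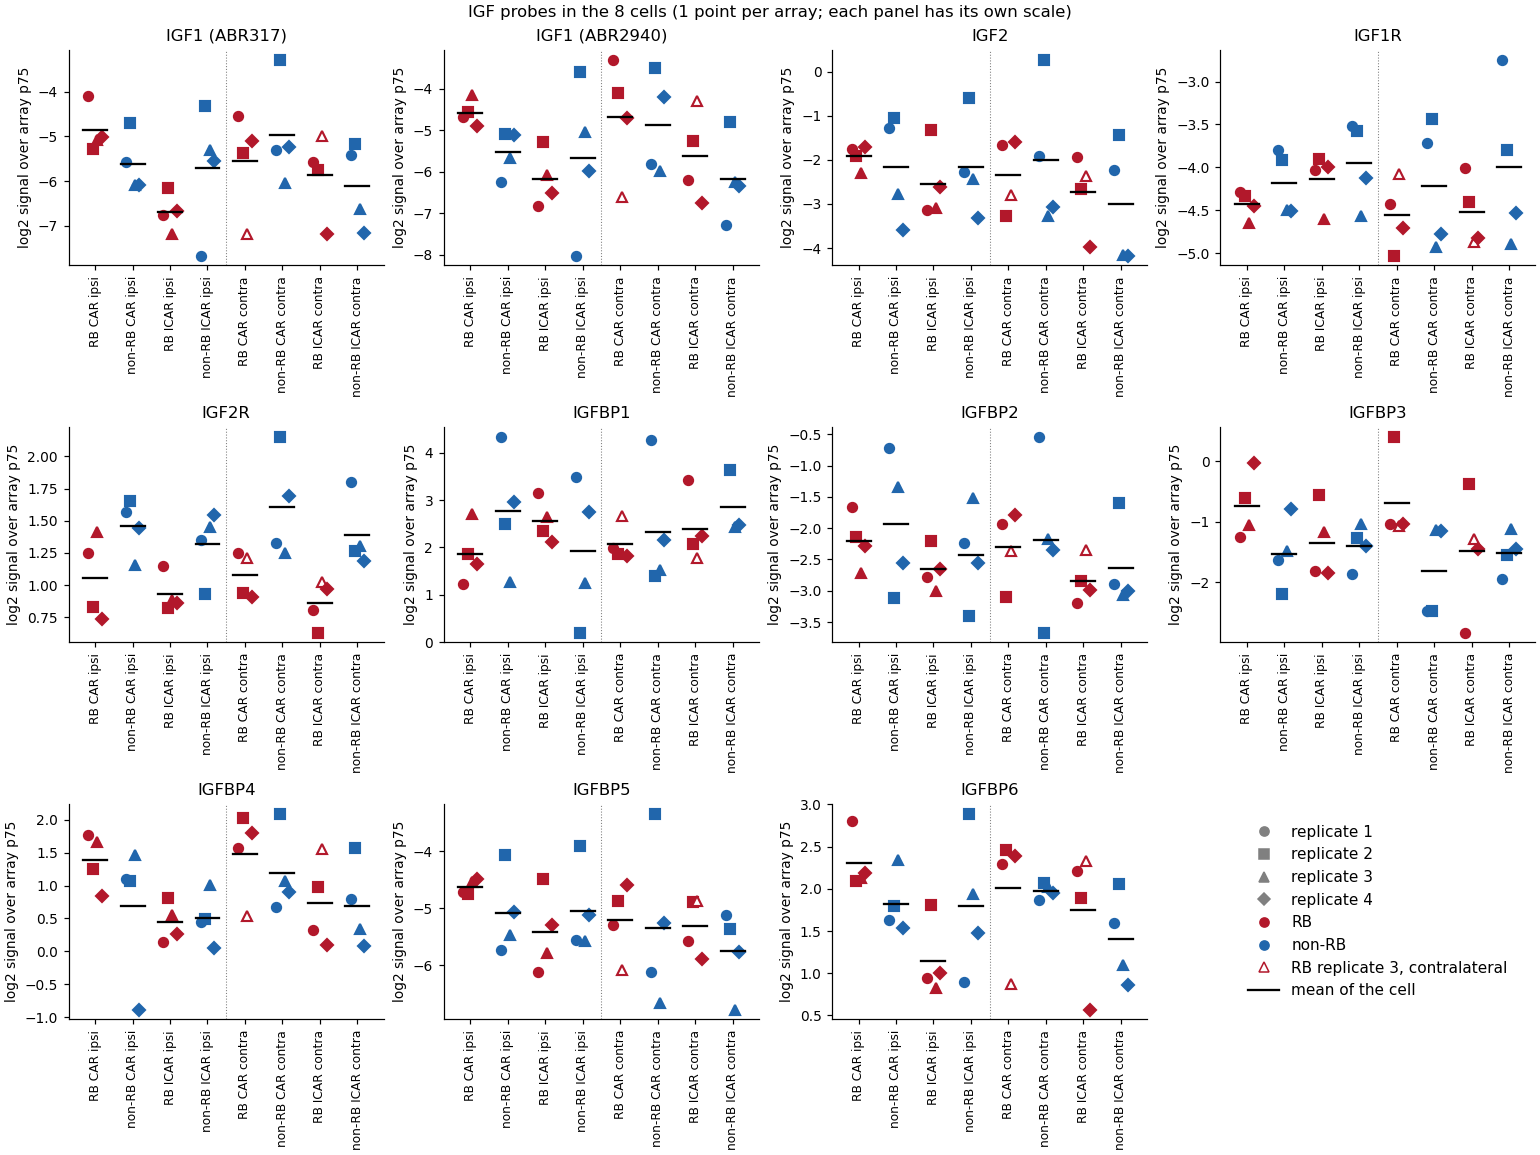
Levels of the 11 IGF probes in the 8 cells, as log2 signal over the 75th percentile of the array (vertical axis, own scale in each panel). Each point is 1 array, shapes are replicate numbers, red is RB and blue non-RB, bars are cell means, and open triangles mark the contralateral arrays of RB replicate 3. IGF2R means run from 0.86 to 1.61 with the 4 non-RB means above the 4 RB means, while the points of most other panels overlap between cells.

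RB and non-RB cows were compared within each of the 4 compartments and over the whole uterus, to ask whether the IGF system differed between fertility groups. With limma and Benjamini-Hochberg adjustment no probe of the array was called at an adjusted p under 0.05 in any of these 5 comparisons, and the methods' t-test, unpaired and adjusted in the same way, also called 0 probes in each compartment and over the cow means, but 67 when the whole uterus was tested on 16 against 16 arrays. At an unadjusted p under 0.05 limma counted 446 probes in ipsilateral CAR, 475 in ipsilateral ICAR, 228 in contralateral CAR, 208 in contralateral ICAR and 286 over the whole uterus. These were 3.41%, 3.69%, 1.74%, 1.60% and 2.21% of the probes tested. Of the 11 IGF probes, 1, 0, 1, 1 and 1 passed the same unadjusted threshold, which were IGF1 (ABR2940) in ipsilateral CAR, IGFBP3 in contralateral CAR, and IGF2R in contralateral ICAR and over the whole uterus. Groups that did not overlap made up, with RB lower and RB higher, 1.31% and 0.665% of probes in ipsilateral CAR, 1.32% and 0.908% in ipsilateral ICAR, 0.442% and 0.929% in contralateral CAR, 0.809% and 0.670% in contralateral ICAR, and 0.534% and 0.658% over the cow means. Of the 11 IGF probes 1, 0, 2, 1 and 1 were so separated, in the same order. With 4 cows a group the smallest exact permutation p is 0.0286.

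Neither ligand gave a group difference of 1 direction across compartments. In ipsilateral CAR the IGF1 probe ABR2940 read −4.68, −4.57, −4.16 and −4.91 in RB replicates 1 to 4 and −6.25, −5.09, −5.66 and −5.11 in the non-RB cows. The groups did not overlap there, since every RB array lay above every non-RB array. The mean was higher in RB cows by 0.95 ± 0.32 (SE, 4 against 4 arrays), a 1.93-fold difference, with an adjusted p of 1.0 by limma and an exact two-sided permutation p of 0.0286. The second IGF1 probe, ABR317, read −4.09, −5.28, −5.08 and −5.02 in RB and −5.57, −4.70, −6.08 and −6.09 in non-RB cows of the same compartment. Its groups overlapped, with a difference of 0.74 (95% interval −0.12 to 1.60, exact permutation p = 0.171). With another background correction the difference of ABR2940 was 0.49, and this probe lay at 0.00385 to 0.102 times the 75th percentile over the arrays. Elsewhere the RB minus non-RB difference of ABR2940 was −0.51, 0.19 and 0.54 in ipsilateral ICAR, contralateral CAR and contralateral ICAR, and 0.29 over the whole uterus (95% interval −0.77 to 1.35). ABR317 gave −0.98, −0.58 and 0.23 in these compartments and −0.15 over the whole uterus, so the probes differed in sign in contralateral CAR and over the whole uterus. Without RB replicate 3 the contralateral differences were 0.83 in CAR and 0.10 in ICAR for ABR2940 and −0.04 and −0.07 for ABR317. For IGF2, the main IGF of fetal growth, the 4 compartments gave differences between −0.39 and 0.26, those of the contralateral horn were −0.18 in CAR and 0.14 in ICAR without RB replicate 3, and the whole uterus gave −0.05 (95% interval −1.26 to 1.16). The non-RB cows spread widely at IGF2, from −4.17 in replicate 4 to 0.28 in replicate 2, both in the contralateral horn.

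IGF2R was lower in RB than in non-RB cows in mean in all 4 compartments. In ipsilateral CAR it read 1.25, 0.83, 1.41 and 0.73 in RB replicates 1 to 4 and 1.57, 1.65, 1.16 and 1.45 in the non-RB cows. In ipsilateral ICAR the RB values were 1.15, 0.82, 0.89 and 0.86 and the non-RB values 1.35, 0.93, 1.45 and 1.55. The groups overlapped in both, since non-RB replicate 3 in CAR lay below both of the higher RB arrays and non-RB replicate 2 in ICAR lay below RB replicate 1. In contralateral CAR the RB values were 1.245, 0.94, 1.21 and 0.91 and the non-RB values 1.33, 2.15, 1.251 and 1.69. In contralateral ICAR they were 0.81, 0.63, 1.02 and 0.97 in RB and 1.80, 1.26, 1.301 and 1.19 in non-RB cows. The groups did not overlap in either region of the contralateral horn, with all RB arrays below all non-RB arrays. In CAR this was a near tie, with RB replicate 1 at 1.245 and non-RB replicate 3 at 1.251. The highest non-RB value of each region, 2.15 in CAR and 1.80 in ICAR, came from an array of slide 1, with the many outlier spots given above. The differences were −0.40 ± 0.26, −0.39 ± 0.21, −0.53 ± 0.26 and −0.53 ± 0.23 (SE) in the order given, or 1.31-fold to 1.45-fold in size, and exact permutation p-values were 0.114, 0.0571, 0.0286 and 0.0286. Of the 4 compartments only contralateral ICAR had a 95% interval without 0, from −1.04 to −0.02. A mean lower in RB in all 4 compartments was shared by 14.1% of 12702 probes.

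Averaged over the 4 arrays of a cow, IGF2R was 1.11, 0.80, 1.13 and 0.87 in RB replicates 1 to 4 and 1.51, 1.5004, 1.29 and 1.47 in non-RB replicates 1 to 4. Every RB cow lay below every non-RB cow. The difference was −0.46 ± 0.16 (SE, 4 against 4 cows, 95% interval −0.81 to −0.11), a 1.38-fold lower level in RB, with an adjusted p of 1.0 by limma and an exact permutation p of 0.0286. Without the contralateral arrays of RB replicate 3 it was −0.46, and over 18 alternative settings it ranged from −0.52 to −0.39. The call depended on the unit of replication. With the 32 arrays compared as 16 against 16, the methods' t-test gave an adjusted p of 0.0171 for IGF2R, but the 4 arrays of a cow are not independent. Within the 6 slide and compartment combinations that held both groups RB was lower in 5, with a median of −0.34, and with slide as a block the difference in contralateral CAR was −0.21. Within scan sessions, the calendar months of scanning, it was lower in 8 of 9 combinations. No probe of the array was called between the groups over the whole uterus, and so no gene of any marker list. Epithelial markers had a median difference of −0.27 and macrophage markers of −0.17, against 0.01 for all probes, and their part in the IGF2R difference was not tested. The values come from whole tissue, so fewer cells of a type and less RNA per cell cannot be told apart.

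IGF1R, which carries the growth signal of both ligands, was also lower in RB in mean in all 4 compartments, by 0.18 to 0.53 on the log2 scale, but the groups overlapped in each. Over the whole uterus its difference was −0.33 (95% interval −0.97 to 0.32, exact permutation p = 0.371). The IGF1R values of non-RB replicates 1 and 2 were the higher ones, −3.80 and −3.92 in ipsilateral CAR against −4.50 and −4.51 in replicates 3 and 4.

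Of the binding proteins, IGFBP3, the main carrier of IGFs in serum, was higher in RB in mean in all 4 compartments, as were 15.8% of probes. The size of the difference lay in CAR. In contralateral CAR IGFBP3 read −1.04, 0.40, −1.06 and −1.04 in RB replicates 1 to 4 and −2.48, −2.47, −1.14 and −1.15 in the non-RB cows. The groups did not overlap, but 3 RB and 2 non-RB arrays lay within 0.11 of each other. The difference was 1.13 ± 0.47 (SE, 4 against 4 arrays), 2.18-fold, with an adjusted p of 1.0 by limma and an exact permutation p of 0.0286. In ipsilateral CAR the RB values of −1.25, −0.61, −1.05 and −0.03 overlapped the non-RB values of −1.63, −2.20, −1.49 and −0.78, with a difference of 0.79 (95% interval −0.03 to 1.62). In ICAR the differences were 0.05 in the ipsilateral and 0.03 in the contralateral horn. The contralateral CAR difference was 0.68 with the scan session as a block and 1.25 without RB replicate 3. Both slides that held RB and non-RB arrays of contralateral CAR had RB higher, by 0.11 and 1.44 with 1 array a group, as did all 4 scan session values of CAR, whereas the 4 within-slide values of ICAR were lower in RB, by 0.33 to 1.28 on the log2 scale. Without RB replicate 3 the contralateral ICAR difference was −0.04.

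IGFBP1, a binding protein of the endometrium whose transcript is known to rise in cattle around the time of maternal recognition, was the most variable binding protein between cows. Non-RB replicate 1 was high in 3 of its compartments, with 4.34 in ipsilateral CAR, 3.48 in ipsilateral ICAR and 4.27 in contralateral CAR, while non-RB replicate 2 read 0.20 in ipsilateral ICAR. Its group difference was −0.90 in ipsilateral CAR and 0.64 in ipsilateral ICAR, both with intervals that include 0. IGFBP2 was lower in RB in mean in all 4 compartments, by 0.11 to 0.27, with an interval of −0.83 to 0.42 over the whole uterus. IGFBP4, IGFBP5 and IGFBP6 had whole uterus differences of 0.25, 0.17 and 0.05, and none of their groups was separated in any compartment. Without RB replicate 3 the contralateral CAR differences of these 3 genes moved from 0.30, 0.13 and 0.03 to 0.62, 0.42 and 0.40, and those in contralateral ICAR from 0.04, 0.45 and 0.35 to −0.23, 0.31 and 0.15. The other contralateral differences without RB replicate 3 were −0.57 in CAR and −0.59 in ICAR for IGF2R, −0.50 and −0.42 for IGF1R, −0.45 and −0.27 for IGFBP1, and −0.09 and −0.37 for IGFBP2. Over the whole uterus the largest move of an IGF difference without that pair was 0.06.

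**Figure D2:**
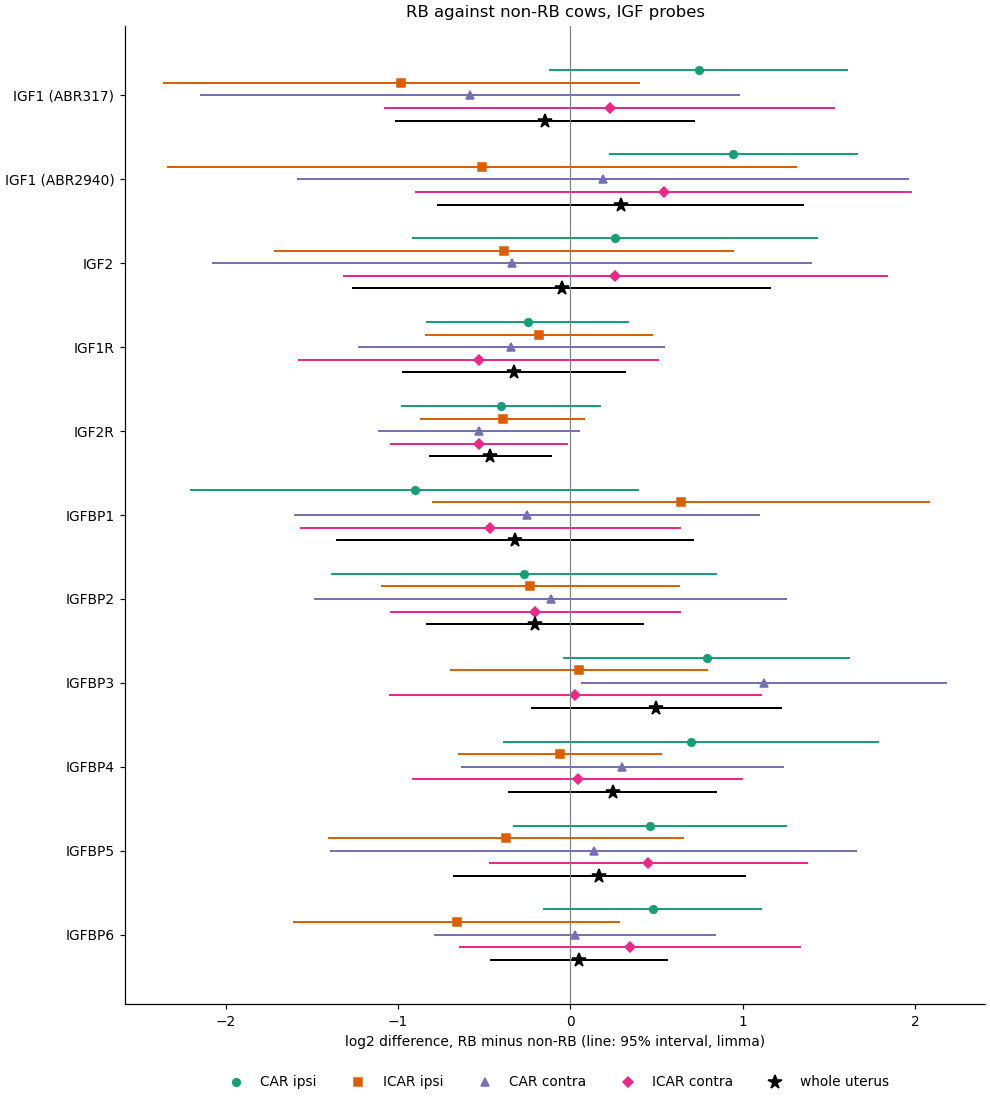
Difference between RB and non-RB cows for each IGF probe (horizontal axis, log2, RB minus non-RB), in the 4 compartments and over the whole uterus. Points are limma estimates and lines 95% intervals from 4 against 4 arrays or cows. All 5 IGF2R estimates lie between −0.53 and −0.39. Their intervals lie below 0 in contralateral ICAR and over the whole uterus and include 0 in the other compartments. IGFBP3 lies above 0 mainly in CAR, and most other intervals include 0.

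CAR and ICAR were then compared within horns and over both horns, to ask where in the endometrium the family is expressed. In single horns no probe was called by limma, and 1246 probes in the ipsilateral and 501 in the contralateral horn had an unadjusted p under 0.05, which were 9.64% and 3.86% of those tested. Of the 11 IGF probes 1 passed that threshold in each horn, IGF1 (ABR317) in the ipsilateral horn and IGF1 (ABR2940) in the contralateral horn. Taken as 1 difference per cow over both horns, again no probe was called, with 2178 or 16.9% at an unadjusted p under 0.05. Among these were 5 IGF probes, those of IGF1, IGF2, IGFBP4 and IGFBP6, all higher in CAR, as were 9.48% of all probes at this threshold. Without the contralateral pair of RB replicate 3, 12.6% of all probes were called, 6.77% with CAR higher, and 4 IGF probes were called, both of IGF1 and those of IGFBP4 and IGFBP6, all higher in CAR. Leaving out any 1 of the other 15 pairs instead left no called probe. In the contralateral horn alone, without RB replicate 3, 2.39% of probes were called and no IGF probe, and with the cow as a block without that pair 6.77% were called, among them 3 IGF probes.

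IGF1, the growth hormone-dependent ligand that is also made locally by uterine stroma, was higher in CAR in most cows. Probe ABR317 gave CAR minus ICAR differences of 2.67, 0.88, 2.10 and 1.65 in RB replicates 1 to 4 in the ipsilateral horn and of 1.02, 0.38, −2.19 and 2.09 in the contralateral horn. In non-RB replicates 1 to 4 they were 2.09, −0.37, −0.77 and −0.55 in the ipsilateral and 0.12, 1.89, 0.60 and 1.93 in the contralateral horn. The difference was thus negative in 3 of 4 non-RB cows in the ipsilateral horn and, in the contralateral horn, only in RB replicate 3. Over both horns the difference was 0.84 ± 0.23 (SE, n = 8 cows), with an adjusted p of 0.117 by limma and an exact sign-flip permutation p of 0.0312. Without the contralateral pair of RB replicate 3 it was 1.11 ± 0.19, 2.16-fold, higher in CAR in 7 of 8 cows, with an adjusted p of 0.00567. Probe ABR2940 gave 0.99 ± 0.31 with all arrays (adjusted p = 0.154) and 1.25 ± 0.25 without that pair (adjusted p = 0.0107), higher in CAR in 5 and then 6 of 8 cows.

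IGFBP4, which inhibits IGF action and is cleaved by PAPPA, was higher in CAR in 7 of 8 cows with and without that pair. Over both horns the differences of RB replicates 1 to 4 were 1.44, 0.75, 0.05 and 1.15 and those of non-RB replicates 1 to 4 were 0.26, 0.55, 0.59 and −0.05. The third RB value was 1.12 when only the ipsilateral horn of that cow was used. The mean was 0.59 ± 0.16 (SE, n = 8 cows), 1.51-fold, with an adjusted p of 0.118, and 0.72 ± 0.12 without the pair, 1.65-fold, with an adjusted p of 0.00529. CAR above ICAR in at least 7 of 8 cows was seen for 11.2% of all probes with all arrays and for 17.9% without the pair.

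IGFBP6, which prefers IGF2 over IGF1, had differences of 0.98, 0.43, −0.08 and 1.504 in the RB cows and of 0.50, −0.54, 0.67 and 0.57 in the non-RB cows over both horns. RB replicate 3 moved to 1.301 without its contralateral pair, and non-RB replicate 2 was then the single cow with ICAR higher. The mean was 0.50 ± 0.20 (SE, n = 8 cows) with all arrays (adjusted p = 0.226) and 0.68 ± 0.17 without the pair (adjusted p = 0.0281), 1.60-fold. Among the 11 cow and horn pairs whose CAR and ICAR arrays shared a slide, CAR was higher in 10 for IGFBP6, in 9 for IGFBP4 and in 9 and 10 for the IGF1 probes. It was also higher in 9 for IGFBP3, which was not called, and the share over all probes was not counted. These pairs leave out the ipsilateral pairs of non-RB replicates 2 and 3, in which both IGF1 probes were lower in CAR. IGFBP6 was lower in CAR in the former, by 1.10. In the other pairs left out CAR was higher for these probes.

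**Figure D3:**
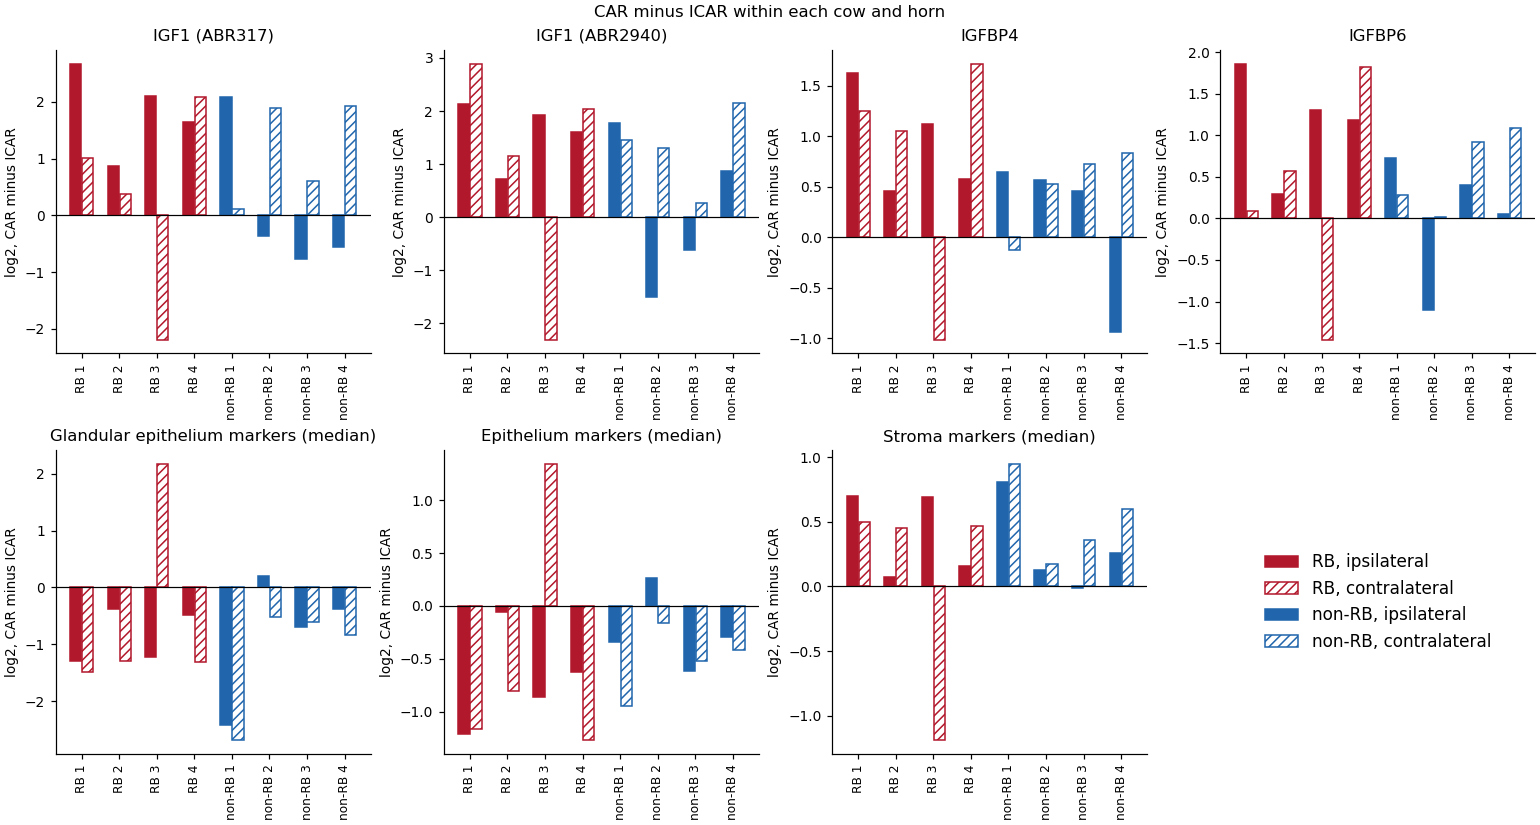
CAR minus ICAR differences (vertical axes, log2) of IGF1, IGFBP4 and IGFBP6 in each cow, and the median over 7 markers of glandular epithelium, 8 of epithelium and 8 of stroma. Filled bars are the ipsilateral and hatched bars the contralateral horn, red RB and blue non-RB cows. The contralateral bar of RB replicate 3 points opposite to most other bars in every panel, at 2.17 for the gland markers and −2.19 for IGF1 (ABR317).

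The remaining members were not called between regions in either fit. IGF2 was higher in CAR by 0.50 with all arrays and by 0.58 without the pair (95% interval 0.12 to 1.04, adjusted p = 0.1001), in 7 of 8 cows in both. IGFBP5, which binds matrix and has stimulating as well as inhibiting effects on IGF action, gave 0.32 and 0.47 (adjusted p = 0.150 without the pair). IGFBP2 gave 0.49 and 0.51, with 6 of 8 cows higher in CAR. IGF1R was lower in CAR, by 0.20 and 0.25 on the log2 scale, in 6 of 8 cows without the pair, with an interval of −0.50 to 0.00. IGF2R and IGFBP3 had differences of 0.17 to 0.25 with intervals that include 0, and IGFBP1 gave −0.21 and −0.26. In IGFBP1 CAR was higher in 5 of 8 cows in the ipsilateral and in 1 of 7 in the contralateral horn. The change of sign lay in the non-RB cows, whose mean was 0.84 in the ipsilateral and −1.16 in the contralateral horn. The RB means were −0.70 and −0.30, and each RB cow had the same sign in both horns. RB replicate 3 read 0.88 in the contralateral horn. The groups overlapped in both horns, with exact permutation p-values of 0.0571 and 0.343.

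**Figure D4:**
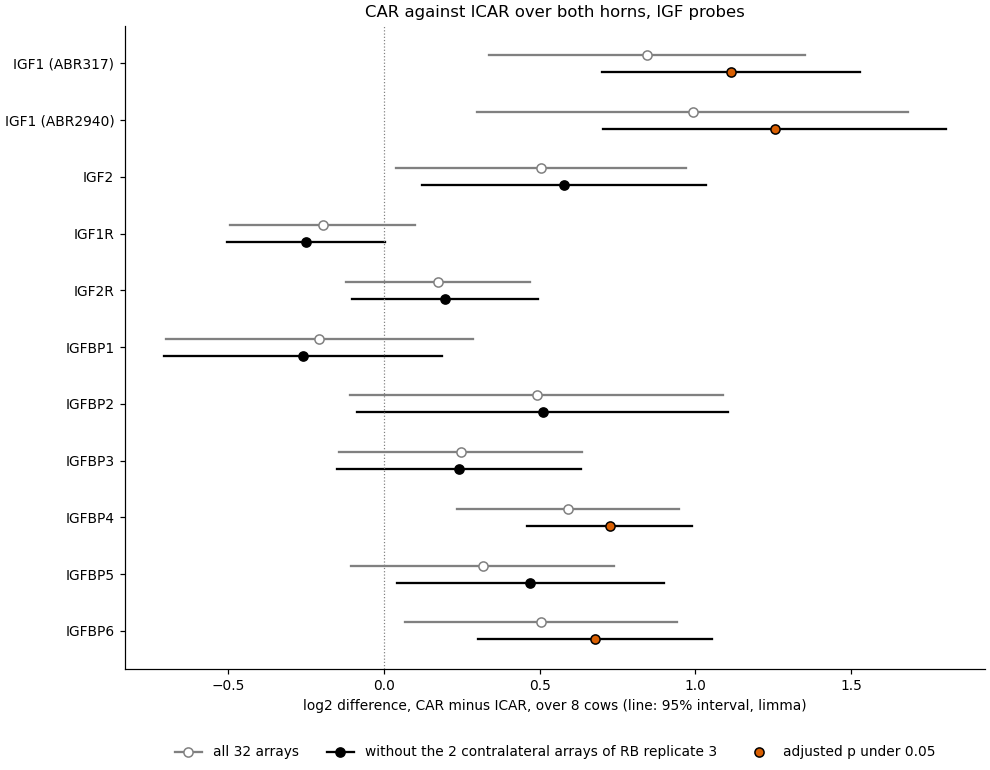
Difference between CAR and ICAR over both horns for each IGF probe (horizontal axis, log2, CAR minus ICAR), with all 32 arrays (grey) and without the contralateral pair of RB replicate 3 (black). Points are limma estimates over 8 cows, lines 95% intervals, and orange marks an adjusted p under 0.05. The 4 orange points are both IGF1 probes at 1.11 and 1.25, IGFBP4 at 0.72 and IGFBP6 at 0.68.

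Cell type markers moved with these regional differences. With all arrays no probe was called over both horns, and so no marker. The contralateral pair of RB replicate 3 was singled out partly by these gland, epithelial and stromal markers. Their calls without it are therefore not independent of that choice. Without the pair, 3 of 7 gland markers (SPDEF, BPIFB1 and FOXA2) and 4 of 8 epithelial markers (CLDN7, EPCAM, MUC1 and KRT8) were called lower in CAR, with medians over the lists of −0.67 and −0.55. In the same fit 4 of 8 stromal markers (COL1A2, PDGFRA, THY1 and COL1A1) were called higher in CAR, with a median of 0.56 against 0.02 for all probes. DES of smooth muscle was higher and GZMA of cytotoxic cells lower in CAR, and no endothelial or macrophage marker was called. The summed gland marker signal ran from 2.59 to 13.0 times the 75th percentile in CAR and from 2.66 to 20.7 in ICAR, the epithelial sum from 14.7 to 42.1 and from 13.0 to 77.2, and the stromal sum from 46.5 to 146 and from 30.2 to 121. Each marker of these 3 lists exceeded background clearly on 15 or 16 of the 16 arrays of each region. Their part in the differences of IGF1, IGFBP4 and IGFBP6 was not tested.

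Other genes of the pathway were taken from lists of signalling, protease, carrier, growth hormone and imprinted genes, compared over both horns without that pair. In that fit 12.6% of all probes were called, 6.77% higher and 5.78% lower in CAR. Of 10 genes of insulin and IGF receptor signalling 1 was called higher in CAR (PIK3R2, 0.58) and 1 lower (PIK3CB, −0.60), both subunits of phosphatidylinositol 3-kinase, and the list median was −0.05. Of 13 proteases that can cleave binding proteins and their inhibitors 3 were called higher and 0 lower, MMP2 by 0.83, ADAM12 by 0.94 and TIMP1, a metalloprotease inhibitor, by 0.66, with a median of 0.23. Of 5 carriers and related proteins 2 were higher, IGFALS, the acid-labile subunit of the serum complex, by 1.11 and NOV, a matrix protein with a binding protein domain, by 0.84. GHR, the growth hormone receptor, was the 1 gene called of 7 in its axis, higher in CAR by 1.04. Of 4 imprinted genes MEST was higher by 1.44 and PEG3 by 0.63. The IGF genes themselves had a median of 0.49 without the pair and 0.40 with all arrays, against 0.02 for all probes in both. With all arrays no probe was called over both horns, and so no gene of any of these lists. Between RB and non-RB cows over the whole uterus no probe of the array was called either, so these lists had 0 called genes. GRB14, an adaptor that inhibits the insulin receptor, differed by 0.69 and ADAM9 by 0.80, RB higher, both with an adjusted p of 1.0.

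The region difference itself was compared between RB and non-RB cows. No probe was called, and 0.882% of probes had an unadjusted p under 0.05, among them IGFBP3 as the only IGF probe. CAR minus ICAR of IGFBP3 was 1.18, 0.36, 0.17 and 1.12 in RB replicates 1 to 4 and −0.15, −0.92, −0.23 and 0.46 in the non-RB cows. All RB cows were above 0 and 3 of 4 non-RB cows below, but non-RB replicate 4 exceeded both of the lower RB cows. The groups differed by 0.92 ± 0.35 (SE, 4 against 4 cows), with an adjusted p of 1.0 by limma and an exact permutation p of 0.0857, and by 0.90 without the pair. For IGFBP4 the groups were separated only without the contralateral pair of RB replicate 3, with 0.75 to 1.44 in RB and −0.05 to 0.59 in non-RB cows. That difference was 0.77 with an exact permutation p of 0.0286 and an adjusted p of 0.855, and 1.22% of probes were separated with RB higher. With all arrays it was 0.51 and the groups overlapped. For the IGF1 probes ABR317 and ABR2940 and for IGFBP6 the RB means were higher by 0.46, 0.55 and 0.41 with all arrays and by 0.99, 1.08 and 0.75 without the pair. The groups overlapped in each with and without it, and exact permutation p-values without it were 0.114, 0.143 and 0.114.

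The horn on the side of the corpus luteum was compared with the other horn, since progesterone reaches it at higher concentration. No probe was called in CAR or ICAR, and 0.723% and 0.497% of probes had an unadjusted p under 0.05, with no IGF probe among them. The differences of the 11 probes lay between −0.30 (IGFBP4) and 0.43 (IGFBP5) in CAR and between −0.33 (IGFBP1) and 0.52 (IGF2) in ICAR, and every 95% interval included 0. IGFBP5 in CAR was higher in the ipsilateral horn in 7 of 8 cows, by 0.43 (95% interval −0.40 to 1.25). Without RB replicate 3 no probe was called either, and the differences lay between −0.66 (IGF1, ABR2940) and 0.27 (IGFBP5) in CAR and between −0.51 (IGFBP1) and 0.69 (IGF2) in ICAR. The RB effect did not differ between horns for any IGF probe at an unadjusted p under 0.05, whereas 5.98% of all probes passed that threshold.

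IGF1 moved with IGFBP6 over the arrays. Across the 32 arrays, 4 per cow, Pearson's r was 0.83 for IGF1 (ABR317) and IGFBP6, and 0.78 after the mean of each cell was removed. The 2 IGF1 probes correlated at 0.80 with each other. IGF1 (ABR317) and IGF2 gave 0.71, IGF2 and IGFBP5 0.70, and IGFBP4 and IGFBP6 0.65. IGF1R and IGF2 correlated more after removal of the cell means, at 0.70 against 0.58. IGFBP3 was inversely related to both receptors, with r of −0.57 for IGF1R and −0.45 for IGF2R, and gave −0.04 and 0.34 with the IGF1 probes and −0.27 with IGF2. IGFBP1 was lower on arrays with more IGF1, with r of −0.53 for ABR2940 over 31 arrays. Without the contralateral pair of RB replicate 3, r was 0.82 for IGF1 (ABR317) and IGFBP6, and 0.72 after removal of the cell means, and the largest move among the 55 raw r was 0.06. Arrays of a cow share that cow, some of them share a slide, and the probes of an array share the composition of its tissue piece. These values therefore describe the arrays and carry no p.

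**Figure D5:**
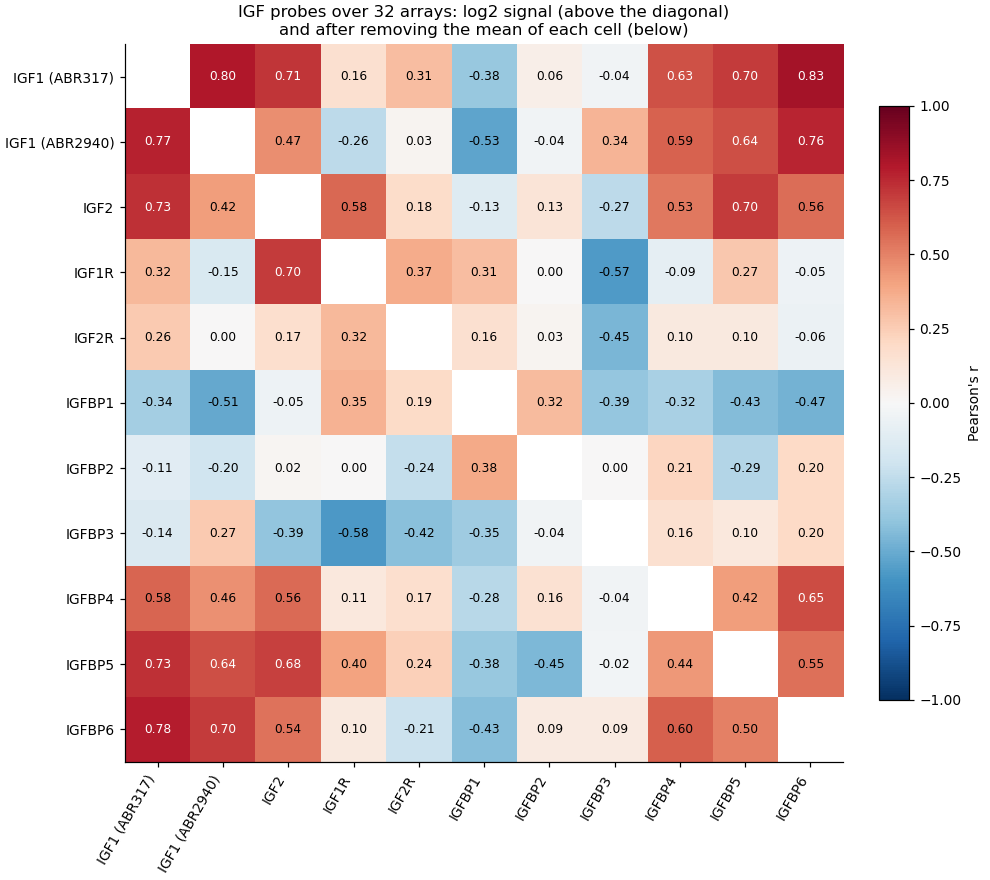
Pearson's r between IGF probes over the 32 arrays (31 where IGFBP1 is involved). Cells above the diagonal use log2 signals and cells below use signals after removal of the mean of each group, region and horn; red is positive and blue negative. IGF1, IGF2, IGFBP4, IGFBP5 and IGFBP6 form a positive block, with 0.83 for IGF1 (ABR317) and IGFBP6, and IGFBP3 is negative with both receptors.

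The genes whose pattern over the 32 arrays was most like that of the called members were sought among 3145 genes with a symbol. Among the genes most like IGFBP4 were RCAN2, a regulator of calcineurin (r = 0.88), and PYCR1, an enzyme of proline synthesis (0.87). IGFBP6 was closest to MFAP4, a microfibril-associated protein (0.88), MAGEL2 (0.87) and the ceramide synthase CERS4 (0.84). IGF1 (ABR2940) was closest to GPR173 (0.86), the kinase MAP2K6 (0.84) and CA11 (0.83). The nearest genes of IGFBP2 were less alike, SELE, the endothelial adhesion molecule E-selectin (0.77), COTL1, an actin-binding protein (0.68), and FCN1 (0.67).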

How the data were processed

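Total RNA of 32 endometrial samples was labelled with Cy3 and hybridised to 1-colour arrays, and the authors extracted spot intensity values with Agilent Feature Extraction 9.5, which subtracted background and spatial trend within each array. The deposited log2 table holds the same values minus the 75th percentile of each array, and served as an alternative. Its values are higher by an offset that is constant within an array and ran from 0.00421 to 0.0140 over the arrays. No count of RNA molecules exists for arrays, so their number limits the precision.

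Here the same scaling was applied to the log2 intensity after removal of outlier spots, and a probe was kept if 2 of 8, 4 of 16 or 8 of 32 arrays, as the comparison had, exceeded background clearly. Probes were compared with limma 3.58.1 in R 4.3.3, with Benjamini-Hochberg adjustment over all probes tested and a threshold of 0.05. Single members were compared with exact two-sided permutation tests. The main limma fits between regions of a horn, or between horns in a region, had the group as a covariate and did not pair arrays by cow. Of 12 comparisons, that of CAR and ICAR over both horns and the fits without the contralateral arrays of RB replicate 3 were added after seeing the data. All members are described, and where several probes exist that with the highest mean leads. Nearest genes are named for the members called in any fit and for IGFBP2, under the rule set for named genes, except 1 that is not reported here. The members, gene lists and markers were chosen with earlier results of these data known.

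The labels do not say that a replicate number is a cow. Deviations from the cell means correlated above 0.1 in 22 of 24 same-number pairs of RB arrays and 21 of 24 of non-RB arrays, with means of 0.41 and 0.38, against −0.14 and −0.12 for different numbers. RB and non-RB cows of the same number are different animals. No label states that the arrays are separate extractions. Alternatives were the filter, quantile scaling, normexp for the background (offset 50), the deposited values, the methods' t-test, the slide or scan session as a block, the replicate block, all arrays in 1 fit, and leaving out each cow. The scripts were tested on simulated data.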

Additional observations from a re-analysis of the deposited data

Results flagged for a closer look

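In 5 of 87 groups of 4 arrays 1 array stood apart from the other three by more than Dixon's limit, and chance alone marks about 1 group in 20. These were IGFBP2 at −1.60 in non-RB replicate 2 of contralateral ICAR, the highest there, and IGFBP3 at 0.40 in RB replicate 2 of contralateral CAR, the highest there. IGFBP4 at −0.89 in non-RB replicate 4 of ipsilateral CAR was the lowest of its group. IGFBP6 was marked in RB CAR of both horns, at 2.80 in replicate 1 of the ipsilateral horn as the highest and at 0.88 in replicate 3 of the contralateral horn as the lowest. The last is 1 of the pair of arrays whose cell type markers go against their labels.

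The difference between the horns in CAR had opposite signs in the groups for IGF1 (ABR317). Ipsilateral minus contralateral was 0.46, 0.09, 2.10 and 0.07 in RB replicates 1 to 4 and −0.27, −1.41, −0.05 and −0.86 in the non-RB cows. The groups differed by 1.33, with an exact permutation p of 0.0286, the smallest that 4 against 4 cows can give, among 44 pairs of probe and contrast looked at. The value of 2.10 rests on an array that goes against its label, and without RB replicate 3 the difference was 0.85 with an exact permutation p of 0.0857. The second IGF1 probe was negative in 3 of 4 RB cows and positive in 1 non-RB cow.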

How the results depend on the processing

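Over 227 alternative counts, the number of called IGF probes differed from the reported value of 0 in 4 and the number of all called probes in 14. Of 2480 alternative values of single IGF differences 2304 kept their sign, 28 moved by over 1 SD, and 11 were called. Between RB and non-RB cows, contralateral ICAR had 1 called probe without the slide 1 arrays, and the methods' t-test on 16 against 16 arrays called 67 probes over the whole uterus with 1 IGF probe, IGF2R. Between CAR and ICAR, the ipsilateral horn had 16 called probes with slide as a block, 174 with all 32 arrays in 1 fit and 2 in RB cows only, and the contralateral horn had 175 with all arrays in 1 fit. None of these counts between regions included an IGF probe. Leaving out 1 cow gave 0 to 1 called probes in contralateral ICAR between groups and in the ipsilateral horn between regions, 0 to 309 in the contralateral horn, and 0 to 828 over both horns with 0 to 3 IGF probes. The upper values of 309 and 828 came without RB replicate 3, and 257 probes were called over both horns without non-RB replicate 2, none of the IGF family. Over both horns without the contralateral pair of RB replicate 3, 1622 probes and 4 IGF probes were called, as described above. The cause was not tested.

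With the replicate block no probe was called between CAR and ICAR in the ipsilateral horn (IGFBP4 difference 0.56, adjusted p = 0.240 by limma) or in the contralateral horn (0.62, adjusted p = 0.863). With the replicate block and without the contralateral pair of RB replicate 3, 874 probes were called in the contralateral horn, 3 of them IGF probes, both of IGF1 (adjusted p = 0.0440 and 0.0172) and that of IGFBP4 (adjusted p = 0.0461). The block of RB and non-RB cows by shared number gave 0 called probes in the 4 compartments, and these numbers do not pair animals, with a mean correlation of 0.14 over 16 pairs and 11 above 0.1. Without a replicate block, as an interaction term on 32 arrays, the RB effect also gave 0 called probes between regions and between horns. The replicate block also gave 0 called probes between horns and, with the cow as a random block on 32 arrays, between groups over the whole uterus, and it changed no other call. Signal over background limits the IGF1 probe ABR2940, for which 30 of 32 values were well above background. The IGF1 probe ABR317 and IGFBP5 were also dim, at 0.00493 to 0.102 and 0.00915 to 0.0985 times the 75th percentile, but well above background on all 32 arrays.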
